A study of Ciona robusta with 8 samples.

Results

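Among the genes expressed in heart progenitors of the sea squirt Ciona robusta, 127 gene models had a level at 18 hours post fertilization (hpf) that was at most 0.5 times, and more than 0.25 times, their level at 15 hpf. They were chosen by a rule on these same counts, out of 15232 models in all. CPM, the unit of the rule, is the count of a model scaled to a common library total of 1e6. The rule asked for a mean of at least 20 CPM over the 4 libraries of 15 hpf, which 4803 models reached, and for a mean at 18 hpf within those limits. It also asked that the highest library of 18 hpf lay below the lowest of 15 hpf. The rule left out 14 models by name, of which 2 met its other conditions, and a further 8 models within the limits of fold were left out because their libraries overlapped. The 127 models are 2.64% of the models at this level.

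The 8 libraries are bulk RNA sequencing of trunk ventral cells, described as multipotent cardiopharyngeal progenitors and sorted at 200 to 800 cells a sample. All embryos carried CRISPR/Cas9 reagents, with a guide RNA against Tcf or a control guide RNA. Each of the 4 groups (control guide at 15 hpf, Tcf guide at 15 hpf, control guide at 18 hpf, Tcf guide at 18 hpf) holds 2 libraries, with totals from 6207795 to 9556959 counts. The sources used here do not give the promoter that drove Cas9, the share of cells edited, or whether libraries of 1 group stem from separate batches of embryos. P-values therefore reflect the spread among these samples, and that spread may be technical.

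In ascidians, trunk ventral cells give rise to both heart and pharyngeal muscle. They divide in the tailbud embryo into first heart precursors and into cells that go on towards second heart and pharyngeal muscle fates. Tcf proteins bind DNA and carry the transcriptional response of canonical Wnt signalling together with beta-catenin. The level of a transcript in such cells is set by both its synthesis and its decay, and messages of earlier stages are commonly cleared as progenitors advance.

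The files name genes by model number of the KH gene set. None of the 15232 identifiers matched the RefSeq gene table used here (21486 genes of another assembly), so no gene name, function or sequence was assigned. The identity of the sorted cells could not be checked against marker genes for the same reason. CPM is not corrected for transcript length. Folds compare each model with itself between libraries. Ranks by counts, summed CPM and levels set side by side between models are not corrected for length. In these bulk samples, fewer cells that express a gene and less RNA per cell cannot be told apart.

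**Figure D1:**
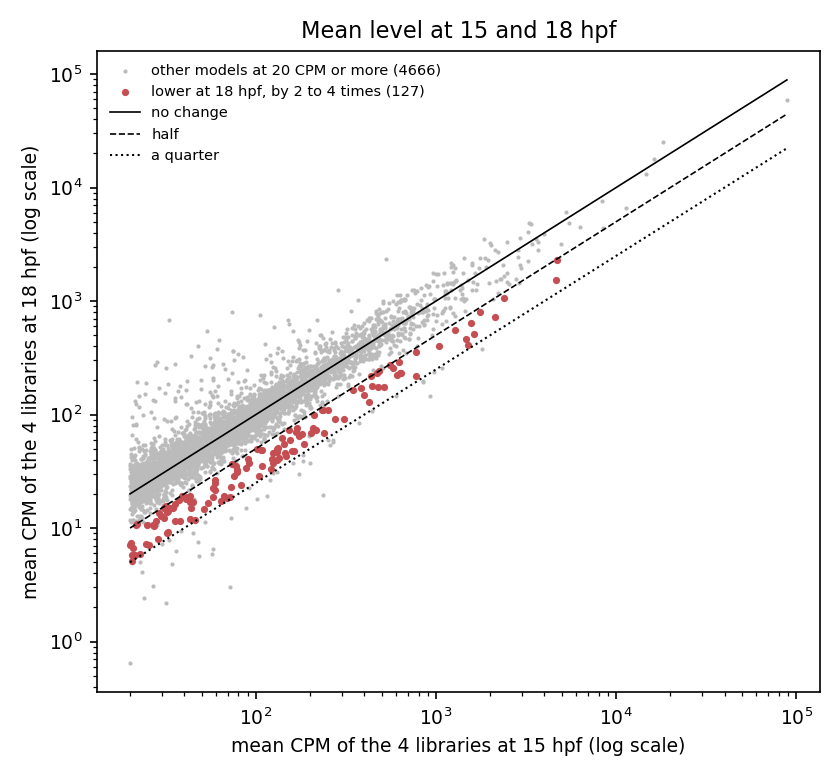
Each point is a gene model with a mean of 20 CPM or more at 15 hpf. The x axis is its mean CPM over the 4 libraries of 15 hpf and the y axis its mean over the 4 of 18 hpf, both on log scales. The 127 models (red) lie between the lines for 0.5 and 0.25 times at every level from 20.08 to 4703 CPM.

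The values that chose the models are given first, as a description without a test. The mean at 15 hpf ran from 20.08 to 4703 CPM, with a median of 106. The mean at 18 hpf ran from 5.15 to 2294 CPM, with a median of 37.7. The median model was 2.63-fold lower at 18 hpf, and the quartiles were 2.24- and 3.24-fold. Most lay in the shallower part of the range: 51 models were 2 to 2.5-fold lower, 32 were 2.5 to 3-fold, 28 were 3 to 3.5-fold and 16 were 3.5-fold or more. The size of the difference is given by level without a reading, since the rule bounds it at every level. Its median was 2.53-fold in the 40 models of 20 to 50 CPM at 15 hpf, 2.63-fold in the 21 of 50 to 100 CPM, 2.69-fold in the 46 of 100 to 500 CPM and 2.70-fold in the 9 of 500 to 1000 CPM. In the 11 models over 1000 CPM it was 2.61-fold. After the decline 80 of the 127 models still had a mean of 20 CPM or more at 18 hpf, and 32 had 100 CPM or more, against 66 at 15 hpf.

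The 2 models with the most counts were KH.C11.89 and KH.C11.4. KH.C11.89 had 4474 and 4889 CPM in control and 5018 and 4429 CPM in Tcf libraries at 15 hpf. At 18 hpf it had 2396 and 2128 CPM in control and 2413 and 2240 CPM in Tcf libraries, a mean 2.05-fold lower with libraries of 1 time close together. KH.C11.4 had 3885 and 4620 CPM in control and 4059 and 5926 CPM in Tcf libraries at 15 hpf. Its values at 18 hpf were 1867 and 1124 CPM in control and 1819 and 1323 CPM in Tcf libraries, 3.01-fold lower on average. The libraries of KH.C11.4 spread far more within each group than those of KH.C11.89, and in both models the 2 times stayed well apart.

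The models at the ends of the range of fold had fewer counts than KH.C11.89 and KH.C11.4. KH.C4.6, the deepest at 3.999-fold, had 13.5 and 20.09 CPM in control and 26.9 and 21.9 CPM in Tcf libraries at 15 hpf, and 5.65, 3.36, 6.83 and 4.77 CPM in the same order at 18 hpf. KH.C4.26, next at 3.88-fold, had 23.0 and 59.4 CPM in control and 28.5 and 72.9 CPM in Tcf libraries at 15 hpf, against 6.26 to 16.1 CPM in the 4 libraries of 18 hpf. In KH.C4.26 the second library of each guide at 15 hpf, by the numbers of the titles, was more than 2 times the first. The headers reverse these numbers for control at 15 hpf. KH.L153.32, just inside the upper limit at 2.004-fold, was the steadiest of all 127 models, with 462, 468, 468 and 481 CPM in the libraries of 15 hpf and 236, 222, 238 and 242 CPM in those of 18 hpf. KH.S1176.1, also near that limit at 2.01-fold, had 16.999 to 29.1 CPM at 15 hpf and 9.53 to 12.1 CPM at 18 hpf.

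The limits of the rule cut through a continuous range. Just outside the upper limit of 0.5 lay KH.C4.57, whose ratio of 18 to 15 hpf was 0.501 (2074 and 1039 CPM on average), beside 0.499 for KH.L153.32. Just outside the lower limit of 0.25 lay KH.C2.204 with a ratio of 0.247, beside 0.250045 for KH.C4.6. At the minimum level, KH.C8.724 was inside with 20.08 CPM and KH.C2.306 outside with 19.7 CPM at 15 hpf. The gap between the lowest library of 15 hpf and the highest of 18 hpf was smallest in KH.C1.755, at 10.6 and 10.4 CPM. KH.C9.186, with 18.7 CPM in its lowest library of 15 hpf and 19.5 CPM in its highest of 18 hpf, was left out. For most models the times stood further apart than this: the lowest library of 15 hpf was a median 1.74 times the highest of 18 hpf, it was 1.5 times or more in 93 of the 127 models, and under 1.1 times in 6.

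**Figure D2:**
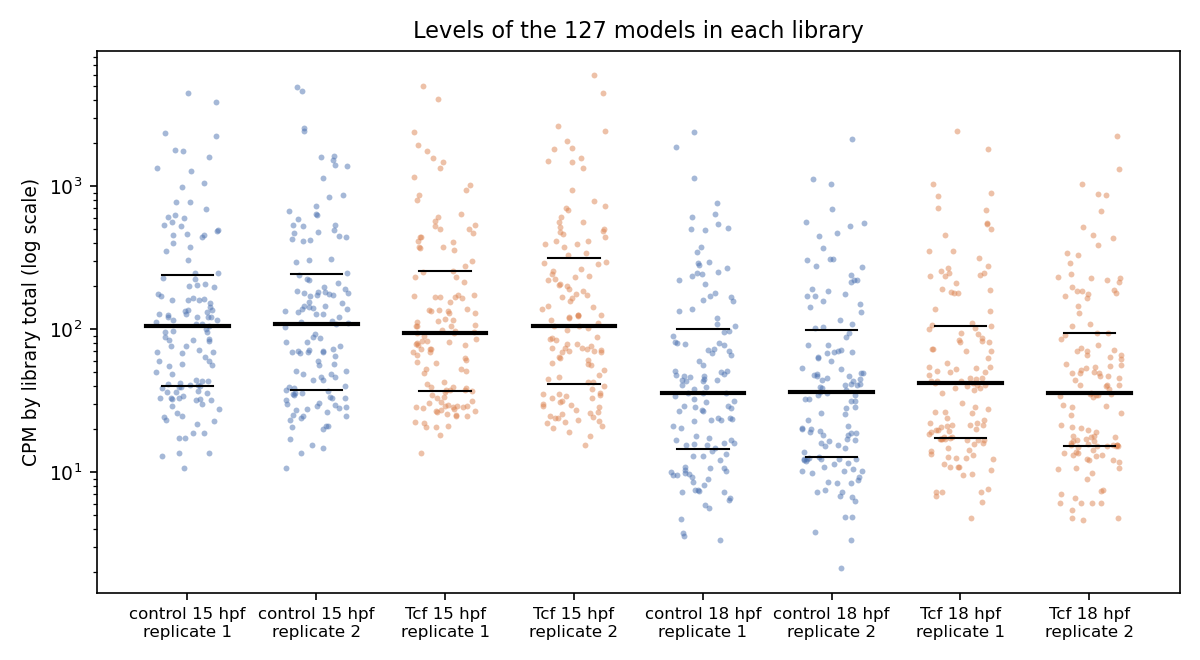
Each point is 1 of the 127 models in 1 library, with CPM on a log scale. The thick bar is the median and the thin bars are the quartiles: medians lie between 93.2 and 108 CPM in the libraries of 15 hpf and between 35.7 and 41.9 CPM in those of 18 hpf.

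As a group the models took 4.08% and 4.23% of the counts of control libraries and 4.003% and 4.70% of the Tcf libraries at 15 hpf. At 18 hpf control libraries gave 1.71% and 1.49%, and Tcf libraries 1.83% and 1.60%, so that the sum was 2.57-fold lower. The sum is dominated by few models: the 10 with the most counts held 54.2% of it at 15 hpf and the same 10 held 54.2% at 18 hpf. The lowest count behind any value was 66 in a library of 15 hpf and 14 in a library of 18 hpf. Counting intervals would cover counting error only, since no molecular identifiers are described.

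Models that changed the other way under the same rule, with the times exchanged, were used for comparison. They numbered 192, with a median of 18.6 CPM at 15 hpf and 47.4 CPM at 18 hpf, a median 2.56-fold higher at 18 hpf. The fold limits were the same but the levels were lower: their summed mean went from 8255 to 21305 CPM, against 42532 to 16579 CPM for the 127 models. At 18 hpf the 2 sets moved in opposite directions between the 2 libraries of a group. In control, replicate 2 held less of the 127 models than replicate 1 (1.49% and 1.71% of counts) and more of the rising set (2.21% and 2.1303%). In Tcf, replicate 2 likewise held less of the former (1.60% and 1.83%) and more of the latter (2.15% and 2.03%). At 15 hpf both sets were larger in replicate 2 by the numbers of the titles, which the headers reverse for control. The shares were 4.23% against 4.08% and 0.829% against 0.812% in control. In Tcf libraries they were 4.70% against 4.003% and 0.862% against 0.798%.

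**Figure D3:**
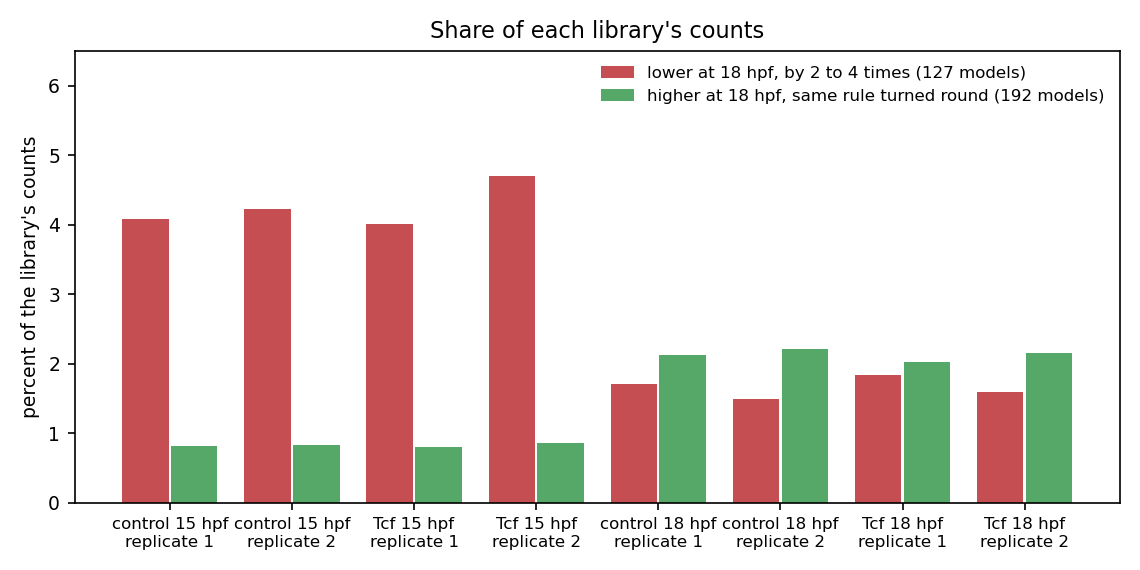
Bars give the percent of each library's counts held by the 127 models with a lower level at 18 hpf (red) and by the 192 models that the same rule finds with the times exchanged (green). The red bars go from 4.003% to 4.70% at 15 hpf down to 1.49% to 1.83% at 18 hpf.

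The question put to the time course is whether a decline seen with 1 guide was also present with the other, in libraries that had no part in choosing it. The rule was therefore applied to the 4 control libraries alone, and the models it found were read in the 4 Tcf libraries, then the other way round. Of 150 models chosen in control libraries, all 150 had a lower mean at 18 hpf in Tcf libraries too. In 143 of them both libraries of 18 hpf lay below both of 15 hpf. No share over all models was computed for this count, so it is given without a reading. Of the 150, 101 (67.3%) were at least halved. Over all models at 20 CPM or more, 3.92% were at least halved in Tcf libraries. In the edgeR fit 111 of the 150 were called lower in Tcf libraries (74.0%; quasi-likelihood test, adjusted p under 0.05) and 0 higher, beside a background of 5.37% of the 11970 models tested and 11.8% of those at 20 CPM or more. The median was 2.54-fold lower where the models were chosen and 2.24-fold where they were read.

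Of 136 models chosen in Tcf libraries, 134 had a lower mean at 18 hpf in control libraries. In 129 the times did not overlap there, again without a share over all models and so without a reading. Of the 136, 108 (79.4%) were at least halved, beside 4.17% of all models at this level. edgeR called 112 of the 136 lower in control libraries (82.4%) and 0 higher. The background was 5.86% of all models tested and 11.9% of those at 20 CPM or more. Their median was 2.56-fold lower in Tcf libraries, where they were chosen, and 2.62-fold in control libraries. These lists hold 103 and 104 of the 127 models. In a fit of the 4 libraries read alone, which shares no sample with the choice, the calls were 114 of 150 and 115 of 136.

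For the 127 models themselves the calls with time restate the rule and are given without a reading. edgeR called 112 lower in control libraries and 112 in Tcf libraries, where the background of lower calls is 5.86% and 5.37% of all models tested. As the mean of both guides it called 125 lower, where that background is 10.7%. All 18 hpf libraries lay below all 15 hpf libraries in 16.2% of the models at 20 CPM or more, and in all 127 by construction. The 2 models not called in the mean were KH.C9.383 and KH.C1.20 (adjusted p = 0.0824 and 0.0742, edgeR), both with unequal libraries at 15 hpf.

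**Figure D4:**
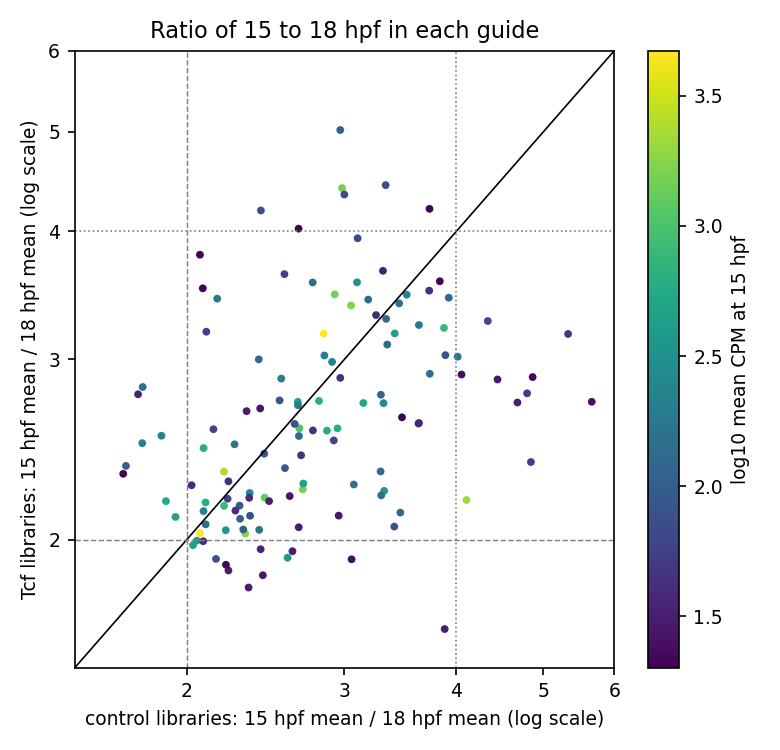
Each point is 1 of the 127 models. The x axis is its mean CPM at 15 hpf divided by that at 18 hpf in the 2 + 2 control libraries, the y axis the same in Tcf libraries (log scales), and colour is log10 of the mean CPM at 15 hpf. Dashed and dotted lines mark 2-fold and 4-fold, and points below the diagonal (81 of 127) have the larger ratio in control libraries. In the TMM-scaled fit, which is not drawn, these were 71, a majority that is lost without any 1 of 3 libraries.

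The size of the decline was compared between the guides. Of the 127 models, 106 were at least halved in both guides, which largely restates the rule. Over all models at 20 CPM or more, 4.17% were at least halved in control and 3.92% in Tcf libraries. The median of the 127 models was 2.67-fold in control and 2.57-fold in Tcf libraries. By library totals the ratio was larger in control libraries for 81 models and in Tcf libraries for 46. In the edgeR fit, scaled by TMM (trimmed mean of M-values), the split was 71 and 56. It turned round without Tcf replicate 1 at 15 hpf (57 models with the larger ratio in control libraries), control replicate 2 at 18 hpf (53) or Tcf replicate 1 at 18 hpf (59), so its direction rests on single libraries. In 73 models the folds of the 2 guides lay within 1.2 times of each other, and in 21 they differed by 1.5 times or more. The interaction of guide and time tests this difference for each model. The rule did not use it, but its limits on the mean ratio and on overlap restrict the interactions that can appear here. edgeR called 0 of the 127, beside a background of 0% of the 11970 models tested, and 13 had an unadjusted p under 0.05 (10.2% of the models, against 4.69% of all tested). Of these 13, 10 had a smaller decline with the Tcf guide.

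KH.C3.443 had the smallest p of the interaction among these models. It had 2220 and 2558 CPM in control and 1930 and 1823 CPM in Tcf libraries at 15 hpf, and 606 and 558 CPM in control and 855 and 861 CPM in Tcf libraries at 18 hpf. The Tcf libraries thus lay below control at 15 hpf and above it at 18 hpf with no overlap at either time, and the ratio of 15 to 18 hpf was 4.10 in control and 2.19 in Tcf libraries. The interaction was 0.87 on the log2 scale with an SE of 0.16 and did not pass (edgeR's adjusted p = 0.285). It passed in 1 of 14 other settings, DESeq2 (adjusted p = 0.00378, range over settings 0.00378 to 0.879).

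KH.L18.38 came next among those with a smaller decline in Tcf libraries. It had 35.9 and 30.5 CPM in control and 29.2 and 33.0 CPM in Tcf libraries at 15 hpf, and 10.3 and 6.87 CPM against 17.4 and 20.6 CPM at 18 hpf (interaction of 1.19 on the log2 scale with SE 0.38, edgeR's adjusted p = 0.959). In the other direction stood KH.C11.328 and KH.C3.47. KH.C11.328 was 2.42-fold lower in control and 4.19-fold lower in Tcf libraries (interaction of -0.82 on the log2 scale with SE 0.28, edgeR's adjusted p = 0.959). KH.C3.47 was 2.16-fold lower in control and 3.44-fold lower in Tcf libraries (interaction of -0.70 on the log2 scale with SE 0.24, edgeR's adjusted p = 0.959). None of these 3 passed in any of 14 other settings.

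Tcf and control guides were then compared at each time, to ask whether the level of these models depended on the targeted gene. At 15 hpf edgeR called 0 of the 127 models, beside a background of 0.00835% of all models tested (1 model). The fitted differences centred near zero, with a median of 0.03 on the log2 scale, against 0.01 in the other 4666 models at 20 CPM or more (10 models at this level are among the 14 left out by name), and 74 models were higher and 53 lower with the Tcf guide. An unadjusted p under 0.05 was found for 10 models (7.87%, against 5.05% of all tested), 5 in each direction. Both Tcf libraries lay above both control libraries in 21 models and below them in 22, together 33.9%, near the background of 32.1% at this level.

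The largest fitted difference at 15 hpf was that of KH.C1.755, with 10.6 and 10.7 CPM in control and 29.1 and 31.6 CPM in Tcf libraries. Its 2 groups stood far apart at 15 hpf (66 and 83 counts against 211 and 245). At 18 hpf the groups overlapped, with 5.86 and 2.14 CPM in control and 10.4 and 4.64 CPM in Tcf libraries. The log2 fold change at 15 hpf was 1.51 (SE 0.43, with 0.920 as edgeR's adjusted p), which did not pass here or in any of 15 other settings. KH.S1961.1 had 18.8 and 20.7 CPM in control and 30.7 and 38.1 CPM in Tcf libraries at 15 hpf (difference of 0.81 on the log2 scale with SE 0.24, edgeR's adjusted p = 0.920). It was also higher with the Tcf guide at 18 hpf, with 7.53 and 8.85 CPM against 12.4 and 13.3 CPM. The mean difference over both times was 0.72 on the log2 scale (SE 0.18, with 1 as edgeR's adjusted p). KH.L154.31 was lower with the Tcf guide at 15 hpf, with 152.07 and 152.09 CPM in control and 114 and 105 CPM in Tcf libraries (difference of -0.47 on the log2 scale with SE 0.14, edgeR's adjusted p = 0.920). At 18 hpf its groups overlapped, at 45.1 and 47.3 CPM against 49.8 and 44.0 CPM.

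At 18 hpf edgeR called 0 of the 127 models, beside a background of 0.00835% of all models tested (1 model). The fitted differences were shifted slightly upwards with the Tcf guide, with a median of 0.07 against -0.03 in the other models at 20 CPM or more, and 78 were higher and 49 lower. An unadjusted p under 0.05 was found for 18 models (14.2%), 13 of them higher, against 3.83% of all models tested. Both Tcf libraries lay above both control libraries in 37 models (29.1%, against 17.1% of the other models at this level) and below them in 13 (10.2%, against 17.2%). The share without overlap was 39.4%, beside a background of 34.5%. This balance moved with single libraries. The median difference was 0.18 without control replicate 1 at 18 hpf, -0.03 without control replicate 2 and 0.01 without Tcf replicate 1. Its direction at 18 hpf turned only without control replicate 2, and its size moved with the others.

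KH.C9.252 had the smallest p at 18 hpf, with 22.7 and 19.99 CPM in control and 41.0 and 40.1 CPM in Tcf libraries. At 15 hpf the guides were nearer, with 76.7 and 68.9 CPM against 80.6 and 86.3 CPM. The log2 fold change at 18 hpf was 0.89 (SE 0.18, with 0.684 as edgeR's adjusted p), and it passed in 1 of 16 other settings, DESeq2 (adjusted p = 0.0482, range 0.0482 to 1). KH.C3.443, whose values are given above, followed with 0.53 (SE 0.11, with 0.706 as edgeR's adjusted p). On the lower side KH.C5.235 had 77.4 and 47.9 CPM in control and 44.8 and 29.4 CPM in Tcf libraries at 18 hpf, and 169 and 132 against 112 and 110 CPM at 15 hpf. It was lower in the Tcf libraries at both times, with a mean log2 fold change of -0.62 (SE 0.18, with 1 as edgeR's adjusted p). This mean ran from -0.82 without control replicate 2 at 18 hpf to -0.40 without control replicate 1 at 18 hpf, and the difference at 18 hpf alone, -0.81, became -1.19 and -0.36 in the same fits. KH.C3.47 had 80.4 and 70.6 CPM in control and 50.1 and 56.2 CPM in Tcf libraries at 18 hpf (difference of -0.54 on the log2 scale with SE 0.17, edgeR's adjusted p = 1). KH.C2.650 was lower in Tcf libraries as the mean of both times, with 122 and 127 against 97.2 and 84.7 CPM at 15 hpf (mean difference of -0.38 on the log2 scale with SE 0.13, edgeR's adjusted p = 1). As the mean of both times 0 of the 127 models were called, beside a background of 0.0167% (2 models), and 20 had an unadjusted p under 0.05 (15.7%, against 4.12% of all tested), 14 of them higher with the Tcf guide.

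**Figure D5:**
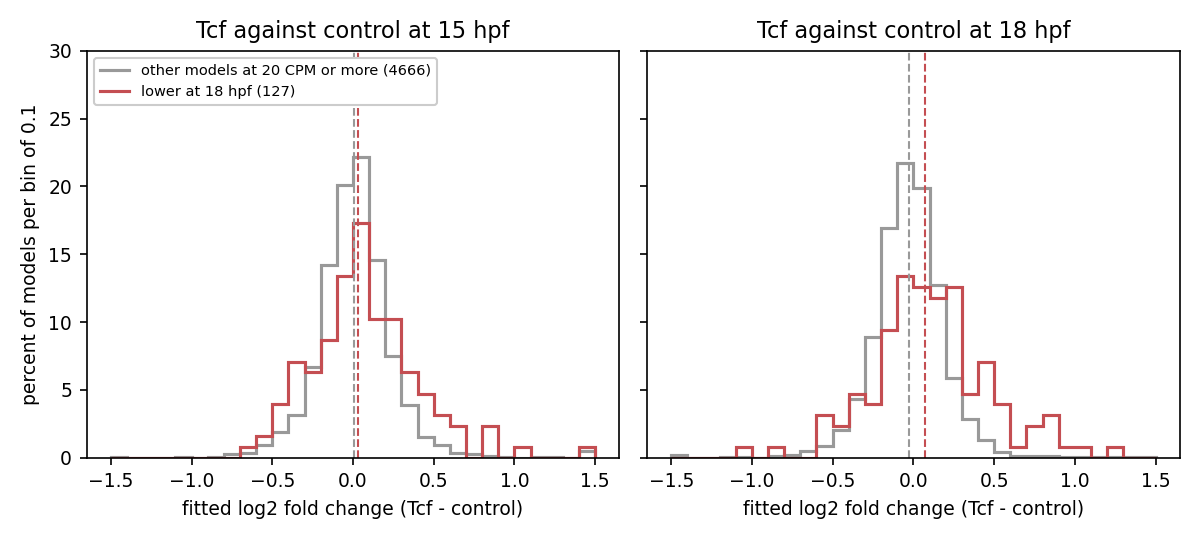
Fitted log2 fold changes of Tcf against control at 15 hpf (left) and 18 hpf (right), as the percent of models in each bin, for the 127 models (red) and the other 4666 models at 20 CPM or more (grey). Dashed lines are medians, 0.03 and 0.01 at 15 hpf and 0.07 and -0.03 at 18 hpf, values beyond the axis stand in the outer bins, and the red distribution is the wider at both times.

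The models varied more between the libraries of a group than other models of similar level at 15 hpf. A rule that forbids overlap favours steady models, but the level at 18 hpf was not matched. The SD of log2 CPM within groups had a median of 0.23, against 0.16 in the 4666 others. This held in each range of level at 15 hpf. The medians were 0.29 against 0.21 at 20 to 50 CPM, 0.30 against 0.16 at 50 to 100 CPM, 0.20 against 0.12 at 100 to 500 CPM and 0.14 against 0.10 at 500 CPM or more. Differences of 1.5 times or more between the 2 libraries of a group were found in 11.8% of the models in control at 15 hpf (others 9.17%), 18.9% in Tcf at 15 hpf (others 4.86%), 21.3% in control at 18 hpf (others 6.34%) and 15.0% in Tcf at 18 hpf (others 3.64%). No test was made of these shares. By the rule the models lay lower at 18 hpf, with a median of 37.7 CPM against 106 CPM at 15 hpf. The others had a median ratio of 15 to 18 hpf of 0.964. Among the others the SD was larger at lower levels. The SD and the shares at 18 hpf therefore do not compare models of equal level at that time. How much of the excess stems from this built-in difference in level was not tested.

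The direction of this variation was uneven in some groups. In Tcf at 15 hpf, 22 of the 24 models that differed by 1.5 times or more were higher in replicate 2, while over all 127 models 69 were higher and 58 lower there (54.3% higher, against 42.6% of other models at this level). In Tcf at 18 hpf, 17 of 19 were lower in replicate 2, and over all 127 models 97 were lower there and 30 higher (23.6% higher, against 50.1% of other models). In control at 18 hpf, 80 of the 127 were lower in replicate 2 and 47 higher (37.0% higher, against 55.8% of other models). Of these, 15 were lower and 12 higher by 1.5 times or more. In control at 15 hpf 65 were higher and 62 lower in replicate 2. Of the 22 higher in Tcf replicate 2 at 15 hpf, 7 were among the 17 lower in Tcf replicate 2 at 18 hpf (31.8% and 41.2% of the lists), where 13.4% of all 127 are on the second list. The 22 shared 2 models with the 15 lower in control replicate 2 at 18 hpf (9.09% and 13.3% of the lists), where 11.8% of all 127 are on the second. The 2 lists of 18 hpf shared 4 (26.7% and 23.5%). One model, KH.C2.995, singled out after its values were seen, met all 3 conditions. It had 986 and 1399 CPM in control and 1019 and 2641 CPM in Tcf libraries at 15 hpf, and 489, 310, 501 and 329 CPM in the same order at 18 hpf.

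The widest spread was that of KH.C9.383, with 22.9 and 76.2 CPM in control and 37.3 and 139 CPM in Tcf libraries at 15 hpf, against 16.1 to 20.9 CPM in all 4 libraries of 18 hpf. By the numbers of the titles, replicate 2 was more than 3 times replicate 1 in both guides at 15 hpf. The headers reverse the control numbers at this time. The libraries of 18 hpf hardly differed. KH.C1.20 and KH.C9.390 were called between guides at 15 hpf only when a library was left out. Both differed more within the Tcf pair than within the control pair at that time. KH.C1.20, also named after its values were seen, had 134 and 179 CPM in control and 105 and 395 CPM in Tcf libraries at 15 hpf. It was called higher with the Tcf guide at 15 hpf (adjusted p = 0.0382, edgeR) once Tcf replicate 1 at 15 hpf was left out, a fit in which its lone high library is assumed to vary like the other groups. KH.C9.390, with 21.6 and 24.98 CPM in control and 21.9 and 70.6 CPM in Tcf libraries at 15 hpf, was called in the same fit (adjusted p = 0.0499, edgeR).

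The identifiers carry a chromosome number after the letter C, and the rule did not use it. Over all models at 20 CPM or more the rate was 2.64 per 100. Chromosome 9 held the most models, 13 of the 295 at this level there (4.41 per 100). It was followed by 11 of 265 on chromosome 7 (4.15 per 100) and 10 of 274 on chromosome 4 (3.65 per 100). Chromosome 12 gave 8 of 192 (4.17 per 100), chromosome 11 gave 9 of 235 (3.83 per 100) and chromosome 14 gave 1 of 206 (0.485 per 100). Identifiers with the letter L or S name no chromosome. They made up 19 of 978 (1.94 per 100) and 12 of 369 (3.25 per 100). The 9 models of chromosome 11 included the 2 with the most counts and held 31.9% of the summed mean CPM at 15 hpf, and the 9 of chromosome 3 held 20.6%. No test was made of these shares, and coordinates were not used here.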

How the data were processed

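RNA was measured by bulk sequencing (SMART-Seq v4 cDNA, Ovation Ultralow libraries, per the labels' protocols) in 8 libraries, 2 for each guide and time. The deposited values are whole-number read counts for each KH2013 gene model. TopHat2 2.0.12 and featureCounts are the tools named by the submitters' processing notes. The sources used here give no build, strand setting or treatment of reads with several positions, and near-identical or overlapping models could share counts. Replicate numbers are those of the titles. The file headers reverse them for the control libraries at 15 hpf.

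CPM was computed from library totals, as the rule demands. 1 count was 0.105 to 0.161 CPM. Tests used the counts with edgeR 4.0.16 (R 4.3.3): filterByExpr at a minimum count of 10 kept 11970 models and all 127 described here, libraries were scaled by trimmed mean of M-values (TMM), and 4 group means were fitted to all 8 libraries with robust quasi-likelihood tests. P-values were adjusted by Benjamini-Hochberg over all models tested, with calls under 0.05. SE was derived from the fitted difference and the quasi-likelihood F statistic, as difference over root F. The SD of log2 CPM used a pseudocount of 1. Fitted changes are on the TMM scale, which lowers the ratio of 18 to 15 hpf by a median 0.14 (log2) relative to library totals. DESeq2 1.42.0, limma-voom (limma 3.58.1), other scalings and filters, a replicate block and leaving out each library were the alternatives. The code was tested on simulated counts.

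The members, comparison sets and lists were chosen with earlier results of these data known. Models are named for extremes of counts, ratio and spread, for lying at a limit of the rule, and for the 2 smallest p-values in each direction of each guide comparison. Exceptions are marked. Lists of pathway and cell type genes could not be applied without gene names. The 14 models the rule leaves out are not described.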

Additional observations from a re-analysis of the deposited data

How the results depend on the processing

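The number of models found by the rule was 127 and stayed within 1.5 times of it in all 13 alternatives. It was 166 with TMM-scaled libraries (116 shared with the 127) and 174 with DESeq2 size factors (114 shared), 157 and 95 with a minimum of 10 or 40 CPM, 135 with overlap allowed, and 125 to 137 without any 1 library (112 to 121 shared). Models chosen with TMM-scaled libraries held 6.29% of counts at 15 hpf and 2.77% at 18 hpf, against 4.25% and 1.66%, since more models enter, among them some with many counts; the set of 192 became 153. The share of counts was 4.10% to 4.34% and 1.60% to 1.71% without any 1 library of its time. The median SD within groups was 0.20 to 0.24 with other pseudocounts or without a library. Calls in the guide not used for the choice ranged over 84 to 114 of 150 and 93 to 119 of 136 without any 1 library. Guide comparisons gave 0 calls in most alternatives. The exceptions were 2 models at 15 hpf and 1 in the mean of times without Tcf replicate 1 at 15 hpf, KH.C9.252 at 18 hpf with DESeq2 (1 model), and KH.C3.443 in the interaction with DESeq2 (1 model). The cause of these exceptions was not tested.

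With the numbers of the titles, the correlation of deviations between same-numbered libraries, across models, lay between -0.15 and 0.06. These values do not settle whether same-numbered libraries share a batch. With a replicate block the calls were 109 of 150 and 110 of 136 (title numbers) or 107 and 105 (header numbers), and 0 in each guide comparison and the interaction. With the control numbers at 18 hpf crossed, an alternative chosen after seeing the data, the block gave 0 calls at 18 hpf. The median guide difference at 18 hpf and the direction of the interaction without single libraries were likewise chosen after seeing the data.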
